A study of Mus musculus with 8 samples.

Results

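The genes of the cyclin-dependent kinase (CDK) inhibitors and of the retinoblastoma proteins were followed in multipotent progenitors (MPPs) that carry the NUP98-HOXA10hd fusion gene (NA) and in wild-type (WT) MPPs. The members were taken by name: Cdkn1a, Cdkn1b, Cdkn1c, Cdkn2a, Cdkn2b, Cdkn2c and Cdkn2d of the inhibitors, and Rb1, Rbl1 and Rbl2 of the retinoblastoma family. Of these 10 genes, 9 had a row among the 37980 Ensembl gene rows of the table. Cdkn2d was not analysed here. The NA libraries came from C57BL/6 mice of the genotype NA LSL/+; Vav-Cre, in which a Cre transgene driven by the Vav promoter, active in blood cells, switches on the fusion. The WT libraries came from C57BL/6 mice that carry no fusion. Each of the 4 NA MPP and 4 WT MPP libraries was made from 1000 bone marrow cells sorted as Lin-CD48-ckit+Sca1+CD135+CD150-. Age and sex of the donors are not in the labels, and neither source used here says whether the 4 libraries of a group came from separate mice, so p-values measure the spread between these libraries, which may be technical. The libraries are named by group and number, from NA1 to NA4 and from WT1 to WT4.

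CDK inhibitors and retinoblastoma proteins hold cells before S phase. The CIP/KIP inhibitors p21 (Cdkn1a), p27 (Cdkn1b) and p57 (Cdkn1c) bind cyclin-CDK complexes, mainly those of CDK2, and the INK4 inhibitors p16 (Cdkn2a), p15 (Cdkn2b), p18 (Cdkn2c) and p19 (Cdkn2d) bind CDK4 and CDK6. Active CDKs phosphorylate pRB (Rb1), p107 (Rbl1) and p130 (Rbl2), which otherwise keep E2F target genes silent. In blood stem and progenitor cells, p57 and p27 are known for a role in quiescence, and p16 and its alternative product p19ARF are silenced by Polycomb proteins such as BMI1.

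The libraries held from 3876910 to 4916950 estimated reads, so that 1 read was worth between 0.888 and 1.18 normalised counts. NA4 lay close to a weighted sum of NA1 to NA3, with a median excess variance over counting noise of 0.00100 against 0.00293 to 0.0143 for the other 3 NA libraries, and WT4 lay at -0.000746 against 0.000165 to 0.00621. The 0.000165 was that of WT1, below the value of NA4, and the fit of WT1 put weight on WT4 alone, at 0.986. Results are therefore also given without NA4 and WT4. The tests on all 8 libraries count NA4 and WT4 as independent of the rest, so the p-values of those tests may be too small. Xist reached 1104 ± 173 normalised counts in WT against 1.92 ± 1.001 in NA (SD, n = 4 each), and Ddx3y, a Y-linked gene, stood at 0.222 ± 0.444 and 515 ± 175, so genotype and donor sex cannot be told apart in any comparison here. Hoxa10, the gene of the fusion's DNA-binding part, was higher in NA (324 ± 32.04 against 139 ± 7.997, limma log2 fold change 1.21, adjusted p = 2.57e-05), and Nup98, the gene of its other part, was at 85.0 ± 10.9 and at 72.2 ± 12.1 (adjusted p = 0.443). Of the genes of the sorted proteins, Kit and Flt3, which encodes CD135, were above 1000 normalised counts in both groups, and so was Cd34, a progenitor marker that the sort did not use. Slamf1, which encodes CD150, was at 19.7 ± 19.4 in NA and 20.9 ± 6.51 in WT. Ly6a, which encodes Sca1, fell by 0.28 (adjusted p = 0.0257) and Cd48 fell by 1.58 on the log2 scale (adjusted p = 0.00711), and neither passed without NA4 and WT4 (adjusted p = 0.163 and 0.0675).

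Among the inhibitors and retinoblastoma genes, Cdkn1b rose in NA MPPs by 1.83-fold, and no other member passed the test. Cdkn1a was at a higher mean in NA, but its spread among libraries of the same genotype was wider than that of most tested genes. Cdkn1c, Cdkn2c, Rb1, Rbl1 and Rbl2 had overlapping values in NA and WT, and Cdkn2a and Cdkn2b were at or near 0 in both. The linear model (limma) was fitted on log2(normalised count + 1) over the 11451 genes that reached 10 normalised counts in 4 or more libraries, and 7 members entered it. It called 17.9% of all tested genes at an adjusted p below 0.05, 10.1% as higher and 7.87% as lower in NA. Higher genes were 56.1% of these calls, and 41.3% when libraries were scaled to their total count. Of the 7 members tested, 1 was called higher and 0 lower, and the counts at an unadjusted p below 0.05 were 1 and 0. The median log2 fold change over all tested genes was -0.011.

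**Figure D1:**
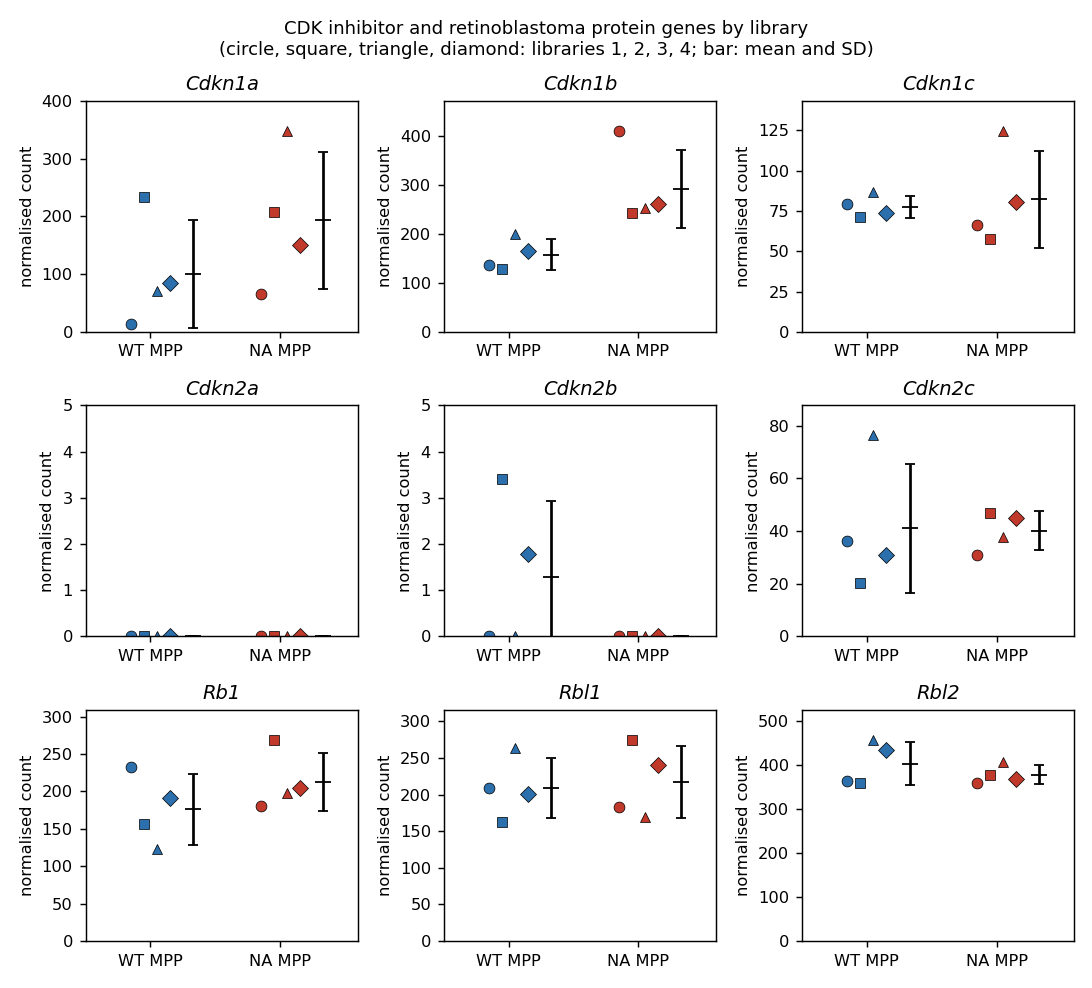
Normalised counts (y axis, starting at 0) of the 9 genes in the 4 WT MPP (blue) and 4 NA MPP (red) libraries, with the marker shape giving the library number and the bar the mean and SD. Cdkn1b is the gene whose NA values all lie above its WT values, while the values of Cdkn1a span 65.3 to 348 in NA and 14.2 to 233 in WT.

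Cdkn1b encodes p27, which binds and inhibits cyclin E-CDK2 and cyclin A-CDK2 and also serves to assemble cyclin D complexes. The gene lies at chr6:134920401-134925513 on the + strand (GRCm38). Cdkn1b was at 410, 242, 253 and 261 normalised counts in NA1 to NA4 and at 137, 129, 199 and 164 in WT1 to WT4. The lowest NA library was above the highest WT library, and NA1 stood well above the other 3 NA libraries, which lay close together. The means were 291 ± 79.4 in NA and 157 ± 31.8 in WT (SD, n = 4 each). The log2 fold change was 0.87 ± 0.19 (SE, 95% interval 0.47 to 1.27, limma adjusted p = 0.00597). On the linear scale this is 1.83-fold with an interval from 1.39 to 2.41. Without NA1 the difference was 0.70 (adjusted p = 0.0124), and without NA4 and WT4 it was 0.94 (adjusted p = 0.0416). Groups that do not overlap were found for 1 of the 7 tested members, Cdkn1b, and for 22.0% of all tested genes, 11.5% with the NA values above. Without NA4 and WT4 limma called 4.58% of the tested genes, 3.31% as higher, and Cdkn1b was among them.

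The promoter of Cdkn1b is shown because it is the member that differed. The 250 bases before its transcription start (RefSeq, GRCm38.p6, chr6:134920151-134920400, + strand) hold 2 CCAAT boxes and 1 GC box (GGGCGG), which are written in capitals.
Cdkn1b: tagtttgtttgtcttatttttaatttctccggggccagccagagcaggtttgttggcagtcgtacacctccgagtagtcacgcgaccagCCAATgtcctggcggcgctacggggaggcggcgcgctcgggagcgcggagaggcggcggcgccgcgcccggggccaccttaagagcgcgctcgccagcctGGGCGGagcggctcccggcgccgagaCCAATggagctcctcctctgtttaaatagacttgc
The CCAAT boxes end 157 and 31 bases before the start and the GC box ends 56 bases before it. Of 32851 RefSeq promoters of this length, 33.8% hold CCAAT and 32.7% hold GGGCGG on either strand, so both are common. No E2F site (TTTCCCGC, TTTGGCGC, TTTGCCGC or TTTCGCGC), AP-1 site (TGANTCA), cAMP response element (TGACGTCA), FOXO site (GTAAACA) or HOX and PBX site (TGATTTAT or TGATTTAC) was found in this window on either strand. These are matches of letters only.

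Among the 9000 tested genes whose mean was 50 normalised counts or more, the 3 whose log2 values, centred on each group's mean, were most like Cdkn1b over the 8 libraries were Rcn1 (Pearson r = 0.973), Phf23 (r = 0.969) and Kdelr1 (r = 0.964). All of them had their highest NA value in NA1, as Cdkn1b did, which largely follows from how they were picked. An r over 0.9 was reached by 49 genes. Rcn1 was at 512 normalised counts in NA1 and at 430 to 458 in NA2 to NA4. The points share library depth, and the fourth libraries are not independent of the rest, so the likeness is a description.

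Cdkn1a encodes p21, a CDK inhibitor that p53 induces and that also responds to growth factor and stress signals. It lies at chr17:29090976-29100727 on the + strand. Cdkn1a was at 65.3, 208, 348 and 151 normalised counts in NA1 to NA4 and at 14.2, 233, 70.6 and 85.2 in WT1 to WT4. The groups overlapped, since WT2 was above all NA libraries but NA3, and WT1 was the lowest of the 8. The means were 193 ± 119 and 101 ± 93.5 (SD, n = 4 each), and the log2 fold change was 1.27 ± 0.64 (SE, 95% interval -0.10 to 2.63, limma adjusted p = 0.186). The difference was 1.86 without WT2 (adjusted p = 0.0442), 0.54 without WT1 (adjusted p = 0.473) and 1.41 without NA4 and WT4 (adjusted p = 0.329). Without NA1 the difference was 1.70 (adjusted p = 0.0853) and without NA3 it was 0.90 (adjusted p = 0.377). Leaving out a single library of either group thus moved its size, and leaving out WT2 moved its call.

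The spread of Cdkn1a within a genotype was among the widest in the table. The highest library exceeded the lowest by 5.33-fold in NA and by 16.4-fold in WT. The SD of its log2 values was 1.004 in NA and 1.63 in WT, and 3.34% and 0.865% of the tested genes had a larger SD in these groups. The other members had smaller SDs in both groups. In WT the SD was 0.77 for Cdkn2c, 0.39 for Rb1 and between 0.12 and 0.28 for Cdkn1b, Cdkn1c, Rbl1 and Rbl2. Rbl2 had the smallest SD of the members in NA, 0.08, a value that 94.8% of the tested genes exceeded, and in WT the smallest was that of Cdkn1c.

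Cdkn1a was next set beside genes of the rapid response to stimulation and tissue dissociation, which include Fos, Egr1 and Dusp1, and beside other targets of p53. Over 22 tested response genes the mean of log2(normalised count + 1) was 9.86, 10.17, 10.40 and 9.98 in NA1 to NA4 and 7.35, 9.49, 9.24 and 8.77 in WT1 to WT4. In NA the 4 libraries had the same order for this mean as for Cdkn1a, and in WT the extremes were the same, WT1 lowest and WT2 highest, while WT3 and WT4 changed places. The same mean over 23 tested p53 targets was 6.30, 6.13, 6.01 and 6.29 in NA1 to NA4 and 5.72, 6.43, 6.28 and 6.25 in WT1 to WT4. WT1 and WT2 were again the extremes of WT, and in NA the order was the reverse of that of Cdkn1a. Gadd45a and Btg2, p53 targets kept in other lists, were not in this mean. Of the 22 response genes, 15 were called higher in NA and 0 lower, against 10.1% and 7.87% of all tested genes, and 8 were called higher without NA4 and WT4, against 3.31%. The summed level of the whole list was 52441 to 62146 in NA and 11960 to 28844 in WT, with Egr3 at 0 in all libraries. The part of this response in the level of Cdkn1a was not tested.

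**Figure D2:**
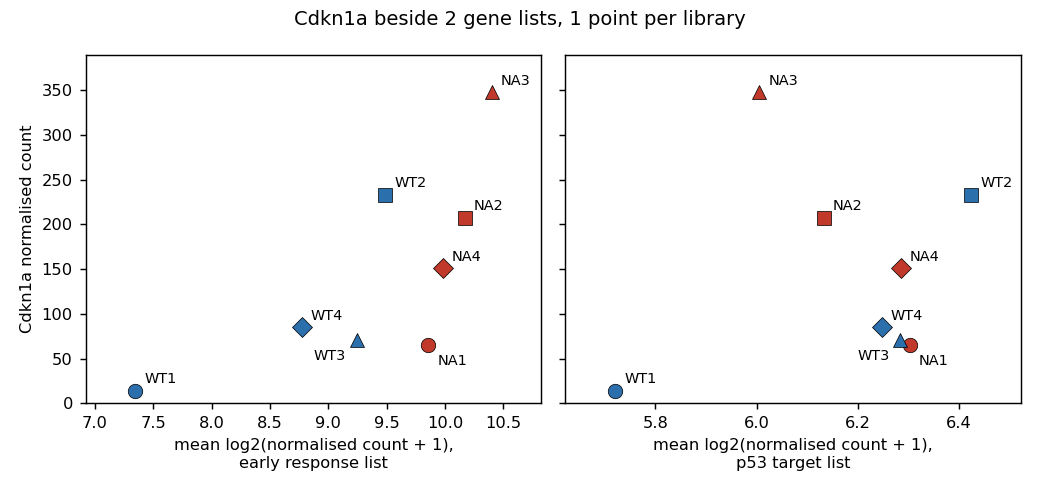
Normalised count of Cdkn1a (y axis) against the mean log2(normalised count + 1) of 22 response genes (left) and of 23 p53 targets (right), 1 point per library, NA in red and WT in blue, with the marker shape giving the library number. On the left the NA libraries have the same order on both axes, from NA1 at 65.3 to NA3 at 348; on the right NA3 has the highest Cdkn1a and the lowest mean of the NA libraries.

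RefSeq gives 2 starts for Cdkn1a, and both promoters are shown because the gene's known regulator p53 is measured here too. In the first (chr17:29090729-29090978, + strand) the capitals mark a p53 site, found from 51 to 32 bases before the start as 2 adjoining half-sites of 10 bases with at most 1 letter off the consensus in total, and in the second (chr17:29093519-29093768, + strand) they mark 2 GC boxes.
Cdkn1a, first start: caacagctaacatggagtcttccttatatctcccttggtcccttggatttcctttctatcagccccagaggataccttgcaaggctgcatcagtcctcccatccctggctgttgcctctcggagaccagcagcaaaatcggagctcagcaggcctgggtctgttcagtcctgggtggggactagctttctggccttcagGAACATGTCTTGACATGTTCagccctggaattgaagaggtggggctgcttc
Cdkn1a, second start: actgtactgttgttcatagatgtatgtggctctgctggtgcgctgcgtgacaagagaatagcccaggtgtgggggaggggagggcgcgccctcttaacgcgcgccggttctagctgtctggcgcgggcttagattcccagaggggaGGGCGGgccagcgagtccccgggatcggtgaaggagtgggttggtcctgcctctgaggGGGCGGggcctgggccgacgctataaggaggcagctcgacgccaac
Such a p53 site was held by 25 of 32851 promoters, or 0.0761%. The table gives 1 value per gene and does not separate the transcripts of these starts. Trp53, which encodes p53, was at 534, 359, 412 and 390 normalised counts in NA1 to NA4 and at 70.1, 271, 0 and 110 in WT1 to WT4. Its groups did not overlap, and WT3 was listed at 0. The log2 fold change of 3.46 ± 1.18 (SE) missed the threshold (limma adjusted p = 0.0556).

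Cdkn1c encodes p57, the inhibitor most tied to stem cell quiescence. Cdkn1c was at 66.3, 57.3, 125 and 80.3 normalised counts in NA1 to NA4 and at 79.0, 71.3, 86.5 and 73.7 in WT1 to WT4. The WT libraries lay close together, and in NA the value of NA3 was above all others and that of NA2 below them. The difference was 0.02 on the log2 scale (95% interval -0.49 to 0.53, limma adjusted p = 0.963), an interval that holds changes of up to 1.45-fold upwards and down to 0.712-fold. Its exons share 625 bases with Gm44732 on the opposite strand and those of Cdkn1a share 273 with AC167363.2. Neither antisense gene has a row of its own, and the use of strand in counting is not stated, so reads of these pairs cannot be told apart.

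Of the 3 INK4 genes measured, Cdkn2c was expressed at a level that could be tested. Cdkn2a was at 0 in all 8 libraries, which at this depth allows 3 reads per library, worth 2.66 to 3.54 normalised counts. Cdkn2b was at 3.40 normalised counts in WT2 and 1.78 in WT4, which is at most 3 reads, and at 0 in the other 6 libraries, so no difference was detectable at this depth. Such floors cover counting error only. Cdkn2c, the gene of p18, was at 30.8, 47.0, 37.9 and 44.9 normalised counts in NA1 to NA4 and at 36.4, 20.4, 76.3 and 31.1 in WT1 to WT4. All NA values fell between those of WT2 and WT3, and the log2 fold change was 0.11 ± 0.36 (SE, 95% interval -0.66 to 0.88, limma adjusted p = 0.859).

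The genes of the 3 retinoblastoma proteins were expressed in all libraries, and none passed the test. Rb1, the gene of pRB, was at 181, 269, 198 and 204 normalised counts in NA1 to NA4 and at 233, 156, 123 and 192 in WT1 to WT4. WT1 was above all NA libraries but NA2, and the log2 fold change was 0.30 ± 0.19 (SE, 95% interval -0.11 to 0.71, limma adjusted p = 0.303). Rbl1, the gene of p107, was at 183, 274, 170 and 240 in NA1 to NA4 and at 210, 163, 263 and 201 in WT1 to WT4, and its log2 fold change was 0.05 ± 0.18 (SE, 95% interval -0.34 to 0.43, adjusted p = 0.890). Rbl2, the gene of p130, the family member that prevails in resting cells, was at 359, 377, 407 and 367 in NA1 to NA4 and at 364, 358, 457 and 434 in WT1 to WT4. Its 8 values lay within a narrow range, and its log2 fold change of -0.09 ± 0.11 (SE, limma adjusted p = 0.631) had the tightest interval of the members, -0.33 to 0.16. Rb1 shares exon bases with Rcbtb2 (488) and Lpar6 (408), and Rbl2 with Aktip (693) and Gm45464 (892), all on the opposite strand, so their counts are uncertain to that extent.

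**Figure D3:**
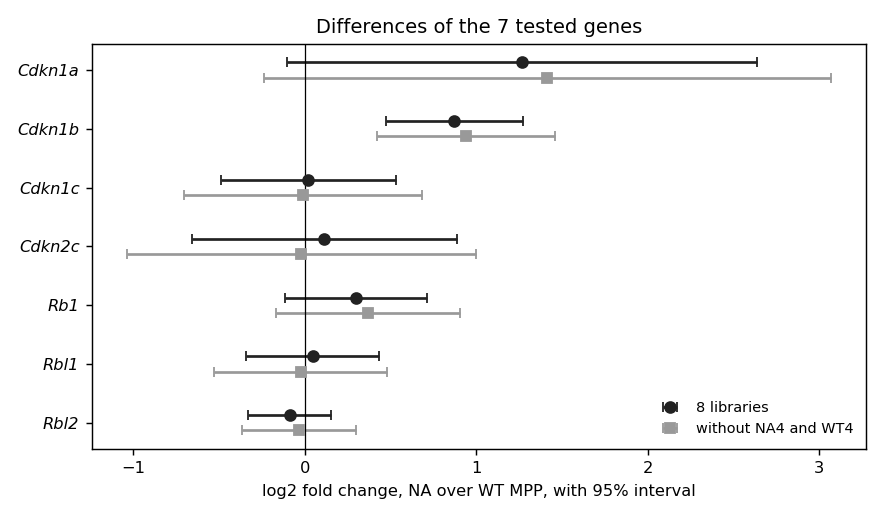
Log2 fold changes of NA over WT MPP (x axis) with 95% intervals for the 7 tested members, from all 8 libraries (black circles) and without NA4 and WT4 (grey squares). The interval of Cdkn1b, 0.47 to 1.27, lies above 0 in both fits, and those of the other 6 genes include 0.

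Rbl1 was the retinoblastoma gene whose promoter held an E2F site, the motif through which E2F factors act, and its sequence is shown for that reason (RefSeq, GRCm38.p6, chr2:157204535-157204784, - strand). The capitals mark the E2F site TTTCGCGC, from 18 to 11 bases before the start, and a GC box read on the other strand (CCGCCC).
Rbl1: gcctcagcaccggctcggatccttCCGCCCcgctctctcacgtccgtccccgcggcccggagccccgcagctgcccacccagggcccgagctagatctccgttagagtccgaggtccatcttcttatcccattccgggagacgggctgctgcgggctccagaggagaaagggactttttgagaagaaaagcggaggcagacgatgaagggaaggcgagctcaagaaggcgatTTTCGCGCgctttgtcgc
An E2F site of the 4 forms searched was in 1.86% of all promoters. The promoter of Rbl2 held only a CHR element (TTTGAA, in 16.0% of promoters) of the motifs searched. RefSeq promoters were matched for 8 of the 10 members, and Cdkn1c and Rb1 had no entry.

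Levels of different genes were compared only per kilobase of joined exons. In WT MPPs Rbl2 was the highest at 53.3 ± 6.57 normalised counts per kb (SD, n = 4) and did not overlap the next gene, Cdkn1c at 38.1 ± 3.30. Rbl1 at 34.9, Cdkn1b at 34.6, Rb1 at 29.2 and Cdkn1a at 28.4 per kb followed, each overlapping its neighbour. Cdkn2c at 15.3 overlapped Cdkn1a, whose lowest library was at 3.998, and lay above Cdkn2b at 0.930 and Cdkn2a at 0. In NA MPPs Cdkn1b led with 64.0 ± 17.4 per kb, before Cdkn1a at 54.3 ± 33.4, Rbl2 at 49.99 ± 2.76, Cdkn1c at 40.3, Rbl1 at 36.2 and Rb1 at 35.4, and all of these neighbours overlapped. Cdkn2c at 14.9 per kb lay below Rb1 in every library. The order depends on the length used: per kilobase of the longest transcript, Cdkn1a was first in NA at 92.8 and Cdkn1b came after Rbl2. In WT, Rbl2 stayed first at 81.9 on that scale but overlapped the next gene, Cdkn1a at 48.5, and Cdkn1b was the sixth at 34.6.

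**Figure D4:**
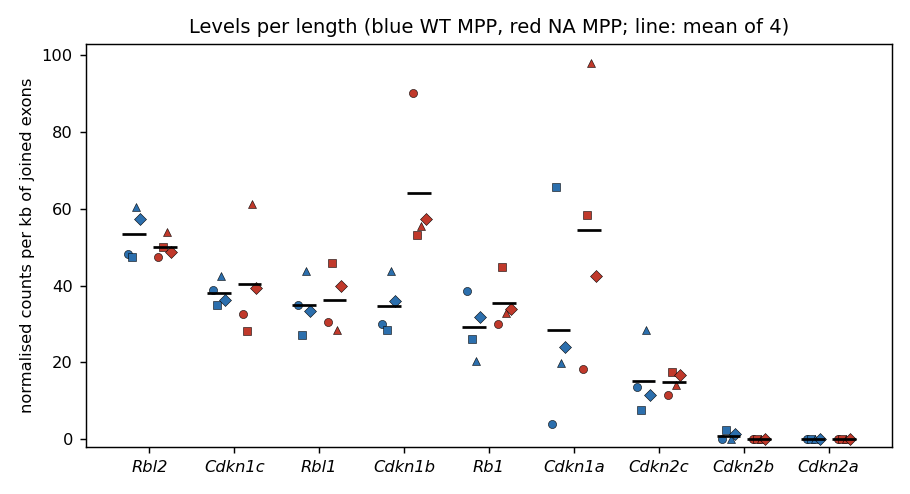
Normalised counts per kb of joined exons (y axis) for the 9 genes in the order of their WT means, WT MPP in blue and NA MPP in red, with the marker shape giving the library number and the line the mean of 4 libraries. Rbl2 leads in WT at a mean of 53.3 and Cdkn1b in NA at 64.0, while Cdkn2b and Cdkn2a lie at or near 0.

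As a share of the summed level per kb of the 6 measured inhibitors, Cdkn1b held 38.5% in NA (24.3% to 59.1%) and 30.2% in WT (20.4% to 34.8%). Cdkn1c held 22.8% in NA (17.9% to 26.7%) and 33.7% in WT (25.2% to 44.9%), with a log2 fold change of 0.02 in its own count. Cdkn1a held from 12.1% to 42.8% in NA and from 4.63% to 47.2% in WT. The ranges of the 2 groups overlapped for each of these genes. These shares depend on the length used. Per kb of the longest transcript, mean Cdkn1a was above mean Cdkn1b in NA (92.8 against 64.0) and in WT (48.5 against 34.6).

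The machinery around the inhibitors was read from 9 lists with 149 genes, of which 141 were tested. In all, 31 of them were called higher (22.0%) and 12 lower (8.51%) in NA, against 10.1% and 7.87% of all tested genes, so the share called lower was near that of the whole table. Without NA4 and WT4, 12 and 3 were called. In bulk samples, fewer cells of a type and less RNA per cell cannot be told apart, which applies to each of the levels given here.

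Of 13 tested G1 and S cyclins and their kinases, 4 were called higher (30.8%, against 10.1% of all tested genes) and 2 lower (15.4%, against 7.87%), with a median log2 fold change of 0.26. Cdk2, the main target of p27, was at 388 ± 77.4 normalised counts in NA against 124 ± 26.2 in WT (SD, n = 4 each), without overlap (log2 fold change 1.64, limma adjusted p = 5.69e-05). Cdk6 rose by 0.86 (adjusted p = 0.00225) and Ccna2, the gene of cyclin A2, by 0.76 (adjusted p = 0.00946). Cdk4 fell by 0.39 (adjusted p = 0.00900) and Ccnd3, the gene of a D-type cyclin, fell by 0.42 (adjusted p = 0.0465). Without NA4 and WT4, 3 of the 13 were called higher (Cdk2, Cdk6 and Ccnd2) and 0 lower, and Cdk4 (adjusted p = 0.0780), Ccnd3 (0.194) and Ccna2 (0.109) missed the threshold. Ccnd2, the gene of cyclin D2, is named as the list's remaining call after its values were seen.

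Of the E2F and DP factors, the partners of the retinoblastoma proteins, 2 of 8 tested were called higher (25%, against 10.1% of all tested genes) and 1 lower (12.5%, against 7.87%), with a median of 0.37. E2f3, an activating E2F, rose by 0.68 (limma adjusted p = 0.00801) and the dimer partner Tfdp2 by 0.59 (adjusted p = 0.00741). E2f4, an E2F that p107 and p130 bind, fell by 0.45 (adjusted p = 0.0497). Without NA4 and WT4 none of these 3 passed, with adjusted p from 0.0918 to 0.246. MuvB proteins silence cell cycle genes together with p107 or p130, as the DREAM complex. The list of MuvB and DREAM components also holds the activators Mybl1, Mybl2 and Foxm1. In this list 1 of 8 tested genes was called higher (12.5%, against 10.1%), with a median of 0.18. This was Dyrk1a, a kinase that promotes assembly of the complex (log2 fold change 0.73, adjusted p = 0.000328; 0.0110 without NA4 and WT4).

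Of 26 tested E2F target genes of S phase, 3 were called higher (11.5%) and 1 lower (3.85%), with a median of 0.10. These shares lie near or below the 10.1% and 7.87% of all tested genes, so nothing is read from them about the list. Rfc4, of the clamp loader, rose by 0.97 (limma adjusted p = 0.00326), and Slbp, which binds histone mRNA, by 0.46 (adjusted p = 0.0173). Mcm7, of the replicative helicase, fell by 0.62 (adjusted p = 0.00143). The third called higher was Rrm2 of ribonucleotide reductase, at 33.5 and 9.93 normalised counts, which was below the mean set for naming genes and is named here after its values were seen. The other 22 tested genes of this list were not called. Mcm7 alone passed without NA4 and WT4.

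Of 14 tested genes for the turnover of the inhibitors, 3 were called higher and 3 lower (21.4% each, against 10.1% and 7.87% of all tested genes), with a median of 0.10. Skp1a, a subunit of SCF ubiquitin ligases including the SKP2 complex that degrades p27, was at 530 ± 71.8 normalised counts in NA against 223 ± 49.5 in WT (log2 fold change 1.26, limma adjusted p = 0.000148). Fbxw7, an F-box protein that directs degradation of cyclin E, rose by 0.54 (adjusted p = 0.0252) and Cks1b, the cofactor of SKP2 for p27, by 0.47 (adjusted p = 0.0314). Cdc34, an E2 enzyme of SCF ligases, fell by 0.69 (adjusted p = 0.00465). Ddb1, of CUL4 ligases, fell by 0.55 (adjusted p = 0.00373), and Rnf123, a ligase subunit for p27 in G1, by 0.51 (adjusted p = 0.0486). Skp1a and Ddb1 were called without NA4 and WT4 too.

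Of 26 tested regulators of transcription and chromatin at the inhibitor genes, 9 were called higher (34.6%, against 10.1% of all tested genes) and 1 lower (3.85%, against 7.87%), with a median of 0.25. Smad4, the mediator of TGF-beta signals, which induce p15 and p21, was at 540 ± 133 normalised counts in NA against 175 ± 55.4 in WT (log2 fold change 1.63, limma adjusted p = 0.000253). Klf6, an activator of p21, rose by 1.51 (adjusted p = 0.00972) and Kdm6b, a histone H3K27 demethylase that acts at the Cdkn2a locus, by 1.26 (adjusted p = 0.00295). The other 6 called higher were Id2, Myc, Bmi1, Gfi1, Rnf2 and Foxo3, named as the rest of the list's calls after their values were seen. Of these, Bmi1, a Polycomb protein that silences Cdkn2a, was at 653 ± 121 in NA and 415 ± 45.5 in WT (adjusted p = 0.00582), and Foxo3, an activator of Cdkn1b, at 616 ± 35.0 and 467 ± 26.1 (adjusted p = 0.00972). Mycn fell by 0.76 (adjusted p = 0.00433). Klf6 is also in the response list. The counts without NA4 and WT4 were 4 higher and 1 lower.

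None of 10 tested genes of p53 and its regulators was called by limma, and 1 was higher and 0 lower at an unadjusted p below 0.05. Their median was -0.07, and 1 of them, Trp53, had groups that did not overlap. Of 23 tested p53 targets other than Cdkn1a, 3 were called higher and 3 lower (13.04% each, against 10.1% and 7.87% of all tested genes), with a median of -0.06. Gadd45a and Btg2, p53 targets called higher in NA, are counted below among the other inhibitors of proliferation and not here. Plk2, a Polo-like kinase, was at 197 ± 70.3 normalised counts in NA against 53.2 ± 38.5 in WT (log2 fold change 2.61, limma adjusted p = 0.0359), and like Cdkn1a it was highest in NA3 among the NA libraries and lowest in WT1 of all. Plk3 rose by 1.63 (adjusted p = 0.0374) and Trp53inp1 by 0.43 (adjusted p = 0.0498). The DNA polymerase gene Polk fell by 0.77 (adjusted p = 0.00748), the damage sensor gene Xpc by 0.49 (adjusted p = 0.0309) and Rps27l by 0.37 (adjusted p = 0.0477). None of these 6 was called without NA4 and WT4 (adjusted p from 0.0675 to 0.265).

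Other inhibitors of proliferation, which do not belong to the CDK inhibitor families, had the highest median of the 9 lists, 0.51, with 6 of 14 tested genes called higher (42.9%, against 10.1% of all tested genes) and 1 lower (7.14%, against 7.87%). Gadd45a, a stress-response gene and p53 target, was at 152 ± 17.4 normalised counts in NA against 20.4 ± 8.68 in WT (log2 fold change 2.92, limma adjusted p = 1.41e-05). Btg2, an antiproliferative gene that is also a p53 target and a member of the response list, rose by 1.51 (adjusted p = 0.0242) and Tob1, of the same family, by 1.25 (adjusted p = 0.00174). Cables1 fell by 0.51 (adjusted p = 0.0431). In the fit without NA4 and WT4, 3 were called higher and 0 lower. How far the response list, in which 15 of 22 tested genes were called higher (8 without NA4 and WT4), shares in these changes was not tested.

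**Figure D5:**
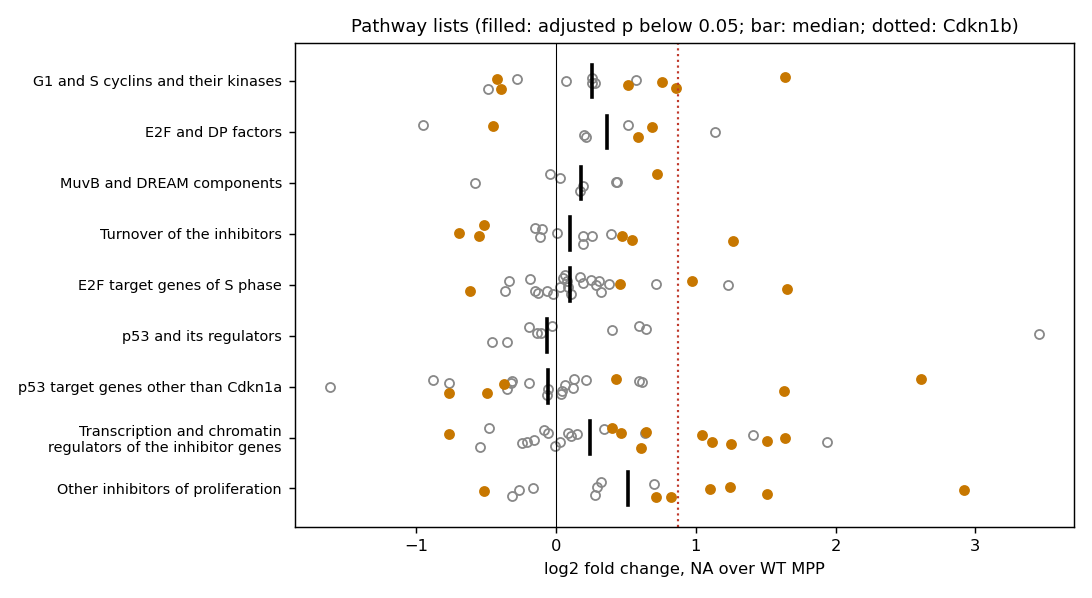
Log2 fold changes of NA over WT MPP (x axis) for the tested genes of the 9 lists, 1 point per gene with a vertical jitter. Filled points passed an adjusted p of 0.05, thick bars are list medians, from -0.07 to 0.51, and the dotted line is Cdkn1b at 0.87; filled points lie on both sides of 0 in 7 of the 9 lists.

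Markers of other blood cells were read beside these results, although the sort for Lin-, CD48- and CD150- cells is designed to remove mature lineage cells and CD150+ long-term stem cells. The summed level of 13 lymphoid markers was 159 to 266 normalised counts in NA against 408 to 525 in WT, with 3 of 13 at 0 in all libraries, and their most abundant gene Cd79b was at 87.4 to 219 in NA and 176 to 256 in WT (limma adjusted p = 0.157). The next, Dntt, was at 27.1 to 54.5 in NA and 194 to 242 in WT and fell by 2.53 on the log2 scale (adjusted p = 5.47e-06). The 11 granulocyte and monocyte markers summed to 3142 to 3379 in NA and 3584 to 4607 in WT. Their most abundant genes were Lyz2 (1652 to 1761 in NA, 1719 to 2019 in WT) and Prtn3 (1371 to 1677 and 1711 to 2291). Of the 5 tested, 0 were called higher and 2 lower (40%, against 7.87% of all tested genes), and 0 lower without NA4 and WT4. The 11 long-term stem cell markers summed to 8696 to 9933 in NA and 6902 to 7053 in WT. Hlf, the most abundant of these stem cell markers, rose by 0.93 (adjusted p = 1.86e-06). Over these 11 stem cell markers, all tested, the median log2 fold change was -0.04, with 5 above 0. Of them, 2 were called higher (18.2%) and 1 lower (9.09%), against 10.1% and 7.87% of all tested genes. Without NA4 and WT4, 1 was called higher and 1 lower. Erythroid markers summed to 4727 to 5311 in NA and 4828 to 5064 in WT, nearly all of it Car2. Of the 3 erythroid genes tested 1 was called lower, with and without NA4 and WT4: Hbb-bt, a globin gene, was at 28.3 to 56.4 in NA and 131 to 185 in WT (adjusted p = 6.79e-05). Megakaryocyte markers summed to 2795 to 3089 and 2616 to 2771, and mast cell and basophil markers to 17.9 to 35.5 and 9.77 to 21.5. The part of these cells in the level of Cdkn1b was not tested.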

How the data were processed

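RNA was sequenced from 4 NA and 4 WT aliquots of 1000 sorted MPPs, whose cDNA was amplified before tagmentation. Per the labels, the submitters' processing notes name bcl2fastq, RSEM, DESeq2 and mm10 (GRCm38); versions, annotation and strand use are not given in the sources used here. The deposited table holds a normalised signal, although it is called raw counts: each library's RSEM estimates had been scaled by the authors with a single size factor. Of the values above 0.5 and worth up to 20 reads, from 98.5% to 99.1% were within 0.1 read of a whole multiple of 1 step per library, and dividing by this step gave the estimated reads. All 8 columns were matched to samples by title.

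Names and exon lengths came from GENCODE M21, which named 32916 of 37980 rows. Values were tested as log2(value + 1) with limma 3.58.1 in R 4.3.3, with a mean-variance trend, no covariates and Benjamini-Hochberg adjustment over the 11451 genes tested, two-sided, at a threshold of 0.05. A fold change on this scale understates changes of low genes. In simulated libraries with 200 changed genes among 11205, the fit called 59% of 2-fold and 91% of 4-fold changes, with 3.23% of the calls being false. The simulated libraries were drawn as independent, with SDs taken from all 8 real libraries. Since NA4 and WT4 lie close to weighted sums of the others, these rates need not hold for the real libraries. The alternatives were other scalings, filters, pseudocounts and covariates, and fits that leave out libraries. Genes were named by a rule: all members, up to 3 of the highest and 3 of the lowest called log2 fold changes per list with a mean of at least 50, markers, and the 3 genes most like a called member. Members and lists were chosen with earlier results of these data known.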

Additional observations from a re-analysis of the deposited data

Results flagged for a closer look

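Cdkn1b stood out within its own group. NA1 was at 410 normalised counts (409.799), while NA2, NA3 and NA4 lay between 242 and 261, and the gap from NA1 to the nearest of them took 0.884 of the range of the 4 libraries, above Dixon's critical value for 4 samples. The other NA libraries were still above the highest WT library, at 199, and without NA1 the log2 fold change was 0.70 (limma adjusted p = 0.0124). Of the 15 gene and group pairs examined 1 was flagged, where chance gives 0.75.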

How the results depend on the processing

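Cdkn1b kept its direction and its call in all 20 alternative fits, with log2 fold changes from 0.70 to 0.99 and adjusted p from 0.00441 to 0.0416. Cdkn1a passed the threshold in 2 of its 20, with the library number as a replicate block (log2 fold change 1.27, adjusted p = 0.0303) and without WT2. Libraries of the same number correlated at r from 0.0131 to 0.158, and those of unlike numbers at r from -0.0943 to 0.101. Low correlations over all genes do not settle whether the numbers pair the libraries. The block called 2004 genes against 2053 and made 2 members higher instead of 1. Its SE for Cdkn1a was 0.35 in place of 0.64. Rb1 and Rbl2 kept their direction and stayed uncalled throughout.

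Other differences near 0 changed sign: Cdkn1c was at -0.047 with total-count scaling and at -0.013 without NA4 and WT4, and from -0.20 to 0.17 when 1 library was left out. Cdkn2c was at -0.0198 without NA4 and WT4 and from -0.16 to 0.46 when 1 was left out. Rbl1 was at -0.0232 with total-count scaling, -0.101 after removal of a GC trend, -0.0248 without NA4 and WT4 and from -0.0768 to 0.162 when 1 was left out. None of these passed the test.

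Without NA4 and WT4, 524 genes were called in place of 2053, and 379 in place of 1152 as higher, in a fit that also held fewer libraries. Leaving out 1 library gave 1125 calls without NA4 and 1279 without WT4. When 1 of the other libraries was left out, the calls were from 1536 (without NA2) to 2176 (without NA3). Of the calls in the fits that leave out 1 library, from 675 to 1186 were higher. Of the list genes, 12 in place of 31 were called higher without NA4 and WT4, and from 22 to 34 when 1 library was left out. Those called lower were 12, against 7 with no filter, 5 with no variance trend, 7 with depth as a covariate, 3 without NA4 and WT4, and from 6 to 12 when 1 library was left out. Members called higher were from 1 to 2 when 1 library was left out, and 2 only without WT2. Total-count scaling gave 2239 calls, of which 41.3% were higher, against 56.1% of the 2053, and moved the median of all genes to -0.079. The cause of these shifts was not tested.

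The planned count models on recovered reads were not run, because fractional RSEM assignments remained below 1 read. Depth limits what can be said of Cdkn2a and Cdkn2b, and the 4 libraries per group limit what can be said of changes under 2-fold. The simulation, with independent libraries, found 59% of changes at 2-fold and held no smaller ones.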
